A study of Homo sapiens with 4 samples.

Results

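The Siglec family, which includes the stem cell and myeloid antigen CD33, was examined as 10 genes taken by symbol from the deposited expression table: CD33, CD22, SIGLEC5, SIGLEC6, SIGLEC7, SIGLEC8, SIGLEC9, SIGLEC10, SIGLEC11 and SIGLEC15. All 10 were among the 32673 genes of the table. RNA-seq had been run on a matched pair of lines made from TF1, an erythroleukaemia cell line that grows on GM-CSF and carried the p210 BCR-ABL fusion in both groups. TF1-BA is the imatinib-sensitive line and TF1-BAR is its imatinib-resistant derivative, obtained by growing TF1-BA for months in imatinib, an inhibitor of the ABL kinase. Each line had 2 libraries of 10000000 cells, grown in RPMI-1640 with 10% serum and, per the labels, 2 ng/ml GM-CSF (the study's methods state a higher concentration), and TF1-BAR was cultured in 2 µM imatinib. The resistant state cannot be told apart from contact with the drug in this design, and whether the drug was present at harvest is not given in the sources used here. The TF1-BAR libraries are titled after a vector, and if a control vector was present its effect is part of every difference below. The study compared 1 derived line with its parent, and nothing states that the libraries of a line came from separate cultures, so the p-values measure only the spread between these libraries.

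Siglecs are cell surface lectins of the immunoglobulin superfamily that bind sialic acid, the sugar at the outer end of many glycans. Most of them, CD33 and CD22 among them, carry an immunoreceptor tyrosine-based inhibitory motif (ITIM) in the tail, which Src family kinases phosphorylate and which then recruits the phosphatases SHP-1 and SHP-2. A smaller group, SIGLEC14, SIGLEC15 and SIGLEC16, instead pairs with the adaptor DAP12, the product of TYROBP, which carries an activating motif. Most members lie in 1 cluster on chromosome 19 that grew by gene duplication, and several are near-copies of a neighbour. CD33 is a marker of myeloid progenitors and of most myeloid leukaemias.

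Sequence before the start sites is shown for CD33, SIGLEC8 and SIGLEC9 with the neighbour SIGLEC12, since CD33 matches one start of SIGLEC12 and SIGLEC8 and SIGLEC9 match the other. Each is 120 bases ending at a RefSeq start site (GRCh38.p14), read 5′ to 3′ on the strand of the gene, and capitals mark TTCCTC, the complement of the GAGGAA core that the myeloid factor PU.1 binds.
CD33, chr19:51224960-51225079, plus strand: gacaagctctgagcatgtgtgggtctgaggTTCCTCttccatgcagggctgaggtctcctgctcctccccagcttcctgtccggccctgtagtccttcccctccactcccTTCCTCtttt
SIGLEC12, start inside the gene model, chr19:51500394-51500513, minus strand: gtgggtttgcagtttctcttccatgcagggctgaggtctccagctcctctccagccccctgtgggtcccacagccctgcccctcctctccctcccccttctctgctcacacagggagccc
SIGLEC12, upstream start, chr19:51501801-51501920, minus strand: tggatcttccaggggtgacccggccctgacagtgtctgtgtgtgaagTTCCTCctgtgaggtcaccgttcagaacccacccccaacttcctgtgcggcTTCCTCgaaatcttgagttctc
SIGLEC8, chr19:51458455-51458574, minus strand: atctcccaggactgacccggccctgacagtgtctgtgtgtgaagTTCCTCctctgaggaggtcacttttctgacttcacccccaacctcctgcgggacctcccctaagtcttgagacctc
SIGLEC9, chr19:51124786-51124905, plus strand: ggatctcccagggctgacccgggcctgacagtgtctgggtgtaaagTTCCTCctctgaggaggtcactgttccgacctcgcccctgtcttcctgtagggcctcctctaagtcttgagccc
In GENCODE 44 these windows overlap no exon of their own gene except for the last 16 bases of that of CD33 and 2 bases of that of SIGLEC8.

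In the 250 bases before the start, the longest identical run was 40 bases for SIGLEC8 and SIGLEC12, 26 bases for CD33 and SIGLEC12, and 25 bases for SIGLEC8 and SIGLEC9, while that of CD33 with SIGLEC8 or SIGLEC9 was 9 bases, as with CD22. Longer runs joined SIGLEC11 to SIGLEC16, with 134 identical bases, and SIGLEC5 to SIGLEC14, with 113. GAGGAA or TTCCTC was found within 120 bases of a start of 5 of the 10 members, CD33, SIGLEC6, SIGLEC8, SIGLEC9 and SIGLEC15, against 11.9% of 35116 windows of that length before RefSeq starts. Within 250 bases it was found for 6 members, with SIGLEC7 added, against 23.6% of windows of that length. Members that are copies of each other are not independent, so these counts were not tested against the shares. CD33 and SIGLEC6 held 2 copies each. All 120 bases lie within annotated exons of the gene itself for SIGLEC5, SIGLEC6, SIGLEC7 and SIGLEC10, and 21 do for CD22, since GENCODE 44 has transcripts that start farther upstream. CD22, SIGLEC5, SIGLEC10 and SIGLEC11 held none in 250 bases. A match is a run of letters and not a measured binding site, and members with and without it are found both among those that rose and among those that did not pass the test.

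Expression is given as FPKM, fragments scaled by exon length and by the mapped fragments of the library, so levels can be set side by side between genes of different length. The library sizes inferred from the FPKM values were 18042299 and 15465497 fragments in TF1-BA and 15761642 and 16074303 in TF1-BAR. The difference between the lines was tested by limma on log2(FPKM + 0.5), with a filter of 0.5 FPKM in the mean that 15519 genes passed and with Benjamini-Hochberg adjustment, and a fold change on this scale understates that of low genes. A gene was called when its log2 fold change was at least 1 in size with an adjusted p under 0.05, which 737 genes met, 4.75% of those tested. Of these, 474 were higher in TF1-BAR, which is 64.3%, and the share was 52.4% after quantile normalization. The median log2 fold change of all genes tested was 0.07, and it was 0.13 with FPKM rescaled to sum equally.

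Several Siglec genes, CD33 among them, were higher in the resistant line. Of the 10 members, 9 passed the filter on low values, and 5 of these were higher in TF1-BAR at an adjusted p under 0.05: CD33, SIGLEC10, SIGLEC6, CD22 and SIGLEC8. Among all genes tested, 16.3% were higher by the same rule and 10.5% lower, and no member was lower. The other 4 tested members, SIGLEC5, SIGLEC9, SIGLEC11 and SIGLEC15, did not pass. None of the 9 reached the fold change threshold, so limma called 0, while 6 had an unadjusted p under 0.05 and limma voom on recovered fragments called 2, SIGLEC10 and SIGLEC15. SIGLEC15 passed the filter only through TF1-BAR, its TF1-BA mean being 0.399 FPKM, so it had to be higher there to be tested. Both TF1-BAR libraries lay above both TF1-BA libraries for 8 of the 10 members, and 40.9% of genes tested were separated in that direction. The median log2 fold change of the tested members was 0.51. Of the 5, 3 passed without TF1-BAR replicate 1, 2 without TF1-BAR replicate 2, and 0 without either TF1-BA library.

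**Figure D1:**
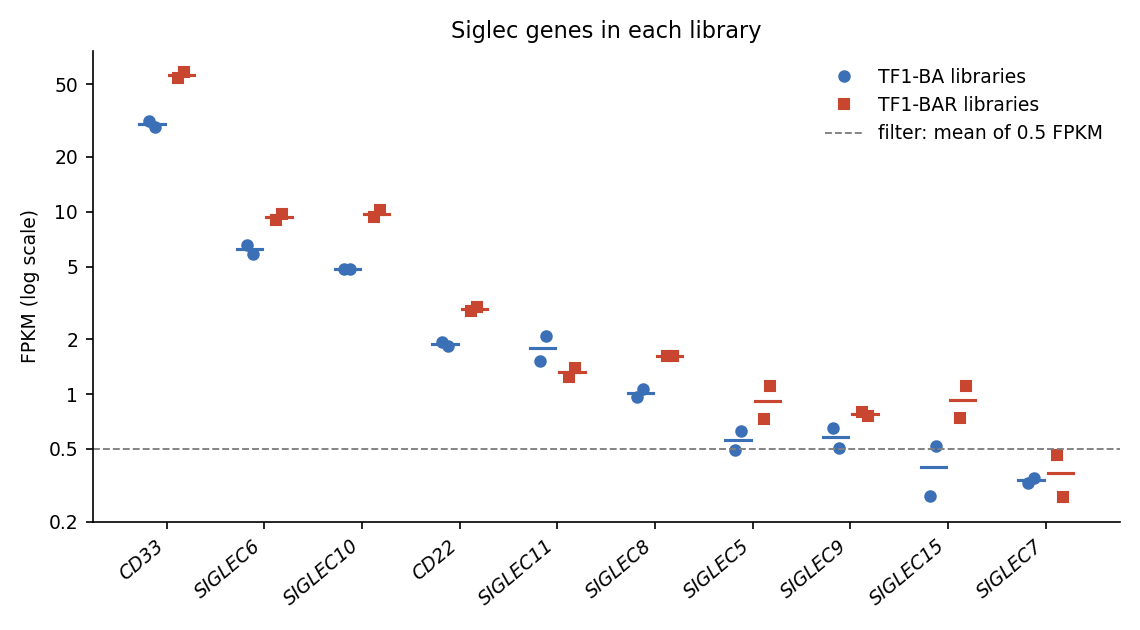
FPKM of the 10 Siglec members in each library, on a log axis, in order of their mean level; circles are TF1-BA libraries, squares TF1-BAR libraries, short lines the group means and the dashed line the filter of 0.5 FPKM. The TF1-BAR squares sit above the TF1-BA circles for 8 genes, below them for SIGLEC11, and overlap for SIGLEC7.

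CD33 was the most abundant member (ENSG00000105383, chromosome 19, 51225064 to 51243860, plus strand, GRCh38). Its FPKM was 31.7 and 29.4 in TF1-BA and 54.2 and 58.5 in TF1-BAR. The groups did not overlap, and both resistant libraries held more CD33 than either sensitive one. The mean rose from 30.5 ± 1.63 to 56.3 ± 3.08 FPKM (SD, n = 2 per line), 1.85 times. On the log2 scale the difference was 0.87 with an SE of 0.07 and a 95% interval from 0.68 to 1.07 (limma, adjusted p = 0.00555). Between 2713 and 5621 fragments per library stood behind these values. No stretch of 100 bases in the GENCODE 44 transcripts of CD33 was identical in another gene. Near-copies with mismatches were not counted, so how surely its fragments can be placed was not measured. Without either TF1-BA library the adjusted p was 0.0537 or 0.0600, at log2 differences of 0.93 and 0.82.

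The rise left CD33 with a larger part of the Siglec transcripts. The summed FPKM of the 10 members was 49.2 and 47.1 in TF1-BA and 81.0 and 87.7 in TF1-BAR, and CD33 made up 62.4% to 66.9% of it in each library. Over all Siglec genes of the table, CD33 was 27.8% and 28.0% of the FPKM in TF1-BA and 36.3% and 35.3% in TF1-BAR. SIGLEC12, which is not among the 10 and encodes a Siglec that in humans has lost sialic acid binding, went from 32.4% and 29.3% to 21.6% and 20.6%. SIGLEC12 itself was at 36.9 and 30.8 FPKM in TF1-BA and 32.3 and 34.2 in TF1-BAR. Its groups overlapped, with a log2 difference of −0.02 (limma, adjusted p = 0.902) that turned to 0.048 with FPKM rescaled to sum equally. In TF1-BA the values of SIGLEC12 and CD33 overlapped, and in TF1-BAR both CD33 values were above both of SIGLEC12.

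Among the 10 members, SIGLEC6 and SIGLEC10 followed CD33 in abundance. SIGLEC10 is a receptor of B cells and myeloid cells that recognises sialylated CD24 (ENSG00000142512, chromosome 19, 51410021 to 51417803, minus strand). It was at 4.85 and 4.83 FPKM in TF1-BA and 9.33 and 10.2 in TF1-BAR. The sensitive libraries were nearly equal and the resistant ones about doubled, with means of 4.84 ± 0.0144 and 9.77 ± 0.627 (SD, n = 2 per line) and a ratio of 2.02. The log2 difference was 0.94, with an SE of 0.08 and an interval of 0.73 to 1.16, just under the fold change threshold (limma, adjusted p = 0.00565). Without TF1-BA replicate 1 or 2 the adjusted p was 0.0613 or 0.0618. Of its 100-base windows, 10.3% were shared with other annotated genes, mainly with SIGLEC10-AS1, but the overlapping antisense gene AC008750.1 held only 2 to 6 fragments in each library against 274 to 602 for SIGLEC10. The kit did not mark strand, so reads of overlapping genes on opposite strands cannot be told apart.

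SIGLEC6 encodes a receptor known from placental trophoblast, B cells and mast cells (ENSG00000105492, chromosome 19, 51519525 to 51531856, minus strand). It had 6.57 and 5.88 FPKM in TF1-BA and 9.02 and 9.74 in TF1-BAR. The lines did not overlap. The ratio of means was 1.51 and the log2 difference 0.56, with an SE of 0.09 and an interval of 0.32 to 0.79 (limma, adjusted p = 0.0170). Without a filter on low values its adjusted p was 0.0568, and it was 0.0878 without TF1-BA replicate 1, 0.123 without TF1-BA replicate 2 and 0.0764 without TF1-BAR replicate 2.

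SIGLEC8, the Siglec of eosinophils and mast cells, was low (ENSG00000105366, chromosome 19, 51450847 to 51458456, minus strand). It was at 0.961 and 1.06 FPKM in TF1-BA and at 1.62 and 1.63 in TF1-BAR, from 52 to 83 fragments. Both resistant libraries were higher by a factor of 1.61 in the mean. The log2 difference of 0.49 had an SE of 0.13 and an interval of 0.16 to 0.83 (limma, adjusted p = 0.0486). Of the 5 members that passed the adjusted p it missed in the most alternatives, 9 of 16, among them the omission of any 1 library.

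CD22, the B cell inhibitory Siglec, lies apart from the cluster (ENSG00000012124, chromosome 19, 35319261 to 35347355, plus strand). Its FPKM was 1.93 and 1.85 in TF1-BA and 2.84 and 2.99 in TF1-BAR. The libraries of a line were close to each other, and the mean went from 1.89 ± 0.0616 to 2.92 ± 0.104 (SD, n = 2 per line). The log2 difference was 0.51, with an SE of 0.10 and an interval of 0.26 to 0.77 (limma, adjusted p = 0.0246). The intronic gene U62631.1, inside CD22 on the same strand, held 1 to 6 fragments. CD22 did not pass with any 1 library left out, where the adjusted p ran from 0.0600 to 0.152.

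**Figure D2:**
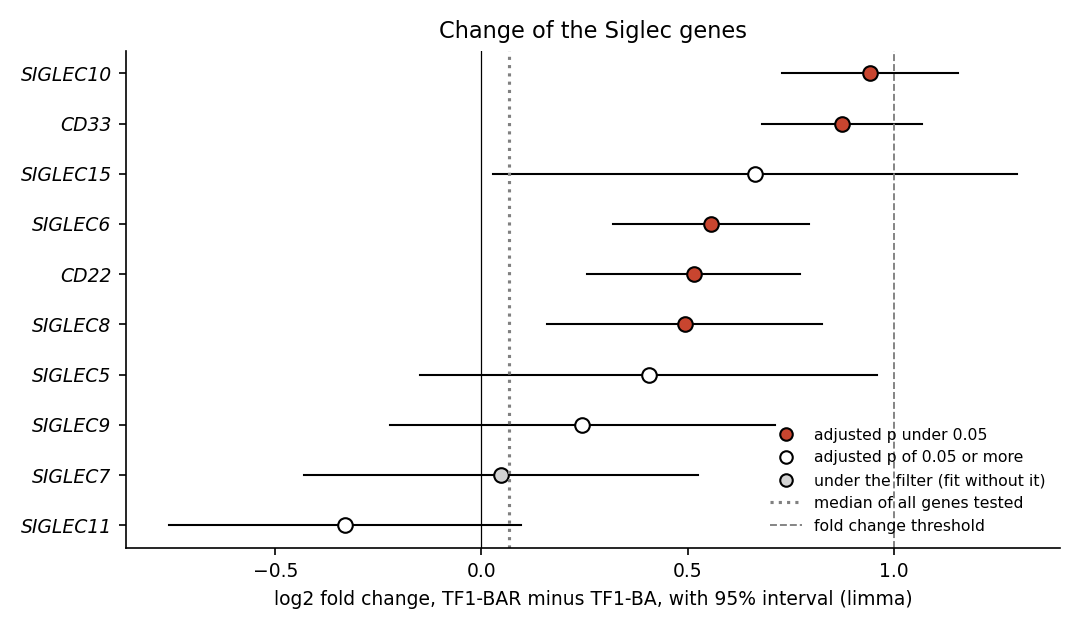
Log2 fold change of each Siglec member, TF1-BAR minus TF1-BA, on the log2(FPKM + 0.5) scale with its 95% interval from limma; filled points passed an adjusted p of 0.05, the grey point is SIGLEC7 fitted without the filter, the dotted line is the median of all genes tested and the dashed line the fold change threshold. The 5 members that passed lie between 0.49 and 0.94, and SIGLEC11 lies below 0 with an interval that spans it.

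SIGLEC11, a macrophage and microglial receptor, was the one member with lower values in the resistant line (ENSG00000161640, chromosome 19, 49948985 to 49961172, minus strand). Its FPKM was 1.52 and 2.08 in TF1-BA and 1.24 and 1.39 in TF1-BAR. The lines did not overlap, but the spread in TF1-BA was large. The log2 difference of −0.33 had an interval from −0.76 to 0.10 (limma, adjusted p = 0.198), and was −0.51 without TF1-BA replicate 1 and −0.15 without TF1-BA replicate 2. Of its 100-base windows, 18.8% were identical in SIGLEC16, the neighbour whose promoter shared the 134-base run. With the fragments of SIGLEC11 and SIGLEC16 summed, the libraries held 161 and 155 in TF1-BA and 123 and 161 in TF1-BAR, which overlap, with a log2 difference of −0.09 and an interval of −0.45 to 0.26 (limma voom, adjusted p = 0.702).

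SIGLEC5 is the inhibitory partner of SIGLEC14, which is nearly identical to it in the outermost domains, diverges from it beyond them and signals through DAP12 (SIGLEC5: ENSG00000105501, chromosome 19, 51611927 to 51645545, minus strand). SIGLEC5 was at 0.493 and 0.630 FPKM in TF1-BA and 0.726 and 1.11 in TF1-BAR, from 21 to 42 fragments. The resistant libraries were both higher but differed from each other by more than the means of the lines did, and the log2 difference of 0.41 had an interval of −0.15 to 0.96 (limma, adjusted p = 0.218). It was 0.21 without TF1-BAR replicate 2, 0.60 without TF1-BAR replicate 1 and 0.69 by limma voom. SIGLEC14 was at 3.06 and 3.20 FPKM in TF1-BA and 6.34 and 6.30 in TF1-BAR, without overlap, and rose by 0.91 with an SE of 0.08 (limma, adjusted p = 0.00565, or 0.0651 and 0.0617 without TF1-BA replicate 1 and 2). The gene models of the pair overlap by 2993 bases on the same strand, and 18.9% of the windows of SIGLEC5 were identical in SIGLEC14, so the split of fragments between them is uncertain. The low intronic gene AC018755.4, within SIGLEC5 on the same strand, held 5 to 18 fragments and rose by 0.94 (limma, adjusted p = 0.0338). Their summed fragments were 136 and 126 in TF1-BA and 235 and 253 in TF1-BAR, a log2 difference of 0.97 with an interval of 0.66 to 1.27 (limma voom, adjusted p = 0.000141).

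SIGLEC15, a DAP12-coupled receptor of osteoclasts and macrophages, is encoded on chromosome 18 (ENSG00000197046, 45825512 to 45844080, plus strand). It was at 0.277 and 0.521 FPKM in TF1-BA and 0.741 and 1.11 in TF1-BAR, from 18, 29, 42 and 64 fragments. Both resistant libraries were above both sensitive ones, and the values within each line were spread widely. The log2 difference was 0.66 with an interval of 0.03 to 1.30 (limma, adjusted p = 0.107). It passed at the same difference when genes were filtered by a mean of 10 recovered fragments (adjusted p = 0.0320), and by limma voom on fragments, where the difference was 1.27 (adjusted p = 0.00982). Whether it passed thus depended on the filter and the method.

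SIGLEC9, of neutrophils and monocytes, and SIGLEC7, of natural killer cells, were both low and rested on few fragments. SIGLEC9 (ENSG00000129450, chromosome 19, 51124908 to 51136651, plus strand) was at 0.655 and 0.509 FPKM in TF1-BA and 0.800 and 0.760 in TF1-BAR. The resistant libraries were a little higher, and the log2 difference of 0.24 had an interval of −0.22 to 0.71 (limma, adjusted p = 0.356), and was 0.15 without TF1-BA replicate 2. SIGLEC7 (ENSG00000168995, chromosome 19, 51142299 to 51153526, plus strand) was at 0.326 and 0.348 FPKM in TF1-BA and 0.466 and 0.274 in TF1-BAR. Its groups overlapped, it fell under the filter, and fitted without the filter its difference was 0.05 with an interval of −0.43 to 0.52 (limma, adjusted p = 0.883). SIGLEC7 rested on 9 to 15 fragments per library, and the part of this depth in its result was not tested.

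By level, the members ran from CD33 through SIGLEC6, SIGLEC10, CD22, SIGLEC11, SIGLEC8, SIGLEC5, SIGLEC9 and SIGLEC15 to SIGLEC7. Only the steps from CD33 to SIGLEC6 and from SIGLEC10 to CD22 separated all 4 libraries of one gene from all 4 of the next. CD33 stood at the 97.3 percentile of mean level among all genes of the table and SIGLEC7 at the 48.7 percentile. The 5 protein-coding genes of at least 10 FPKM whose log2 values, centred on their own mean, ran closest to CD33 over the 4 libraries were KCTD15, ENG, PODXL, PTGS1 and LIF, at Euclidean distances of 0.0105, 0.0485, 0.0505, 0.0561 and 0.0656. Of 4219 genes compared, 11 lay within 0.1, and with 4 libraries such a likeness mainly states a similar fold change.

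The remaining Siglec genes of the table were read from a list of 19 symbols, of which 13 were present. Of these, 7 passed the filter, and 2 rose, SIGLEC14 and the pseudogene SIGLEC20P, with a list median of 0.24. SIGLEC20P lies 40.2 kb before the CD33 start (chromosome 19, 51184905 to 51190809) and was at 1.27 and 1.53 FPKM in TF1-BA and 5.81 and 7.21 in TF1-BAR. It showed a larger log2 difference than any member, 1.88 with an SE of 0.14 (limma, adjusted p = 0.00438, or 0.0521 and 0.0527 without TF1-BA replicate 1 and 2), and was the only Siglec gene called by limma on FPKM. By limma voom on recovered fragments SIGLEC14 was called too, with a 95% interval of 0.69 to 1.33 on the log2 scale (adjusted p = 0.000145), beside the members SIGLEC10 and SIGLEC15. SIGLEC22P, a pseudogene next to CD33, was at 15.5, 15.0, 15.3 and 20.4 FPKM in the same order and did not pass (limma, adjusted p = 0.338), and 67.5% of its windows were shared with a gene that has no symbol. SIGLEC17P, SIGLEC16 and the myelin gene MAG did not pass either, with log2 differences of 0.37, 0.24 and −0.11. SIGLEC1, the macrophage receptor sialoadhesin, had 5 and 2 fragments in TF1-BA and 5 and 2 in TF1-BAR, and SIGLEC21P was listed at 0. SIGLECL1, SIGLEC18P, SIGLEC29P and SIGLEC31P held 0 to 13 fragments in a library.

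**Figure D3:**
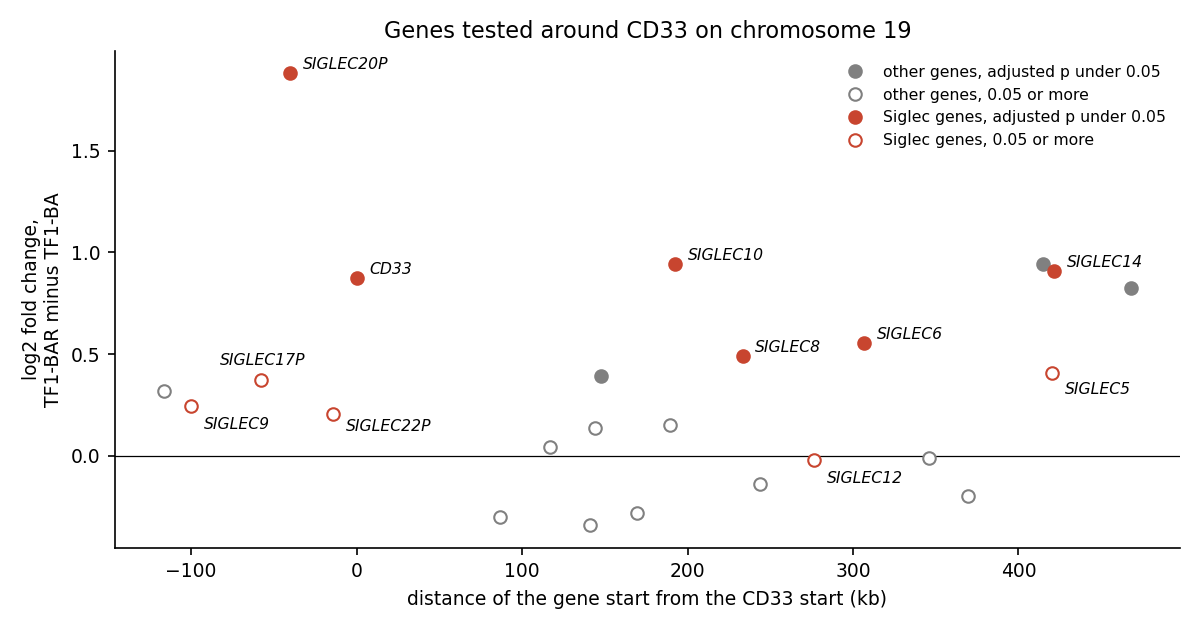
Log2 fold change, TF1-BAR minus TF1-BA, of every gene tested near CD33, by the distance of its start from the CD33 start in kilobases; red points are Siglec genes, grey points other genes, and filled points passed an adjusted p of 0.05. CD33, SIGLEC20P, SIGLEC10, SIGLEC8, SIGLEC6 and SIGLEC14 are filled and lie at 0.49 or above, with genes that did not pass between them.

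The cluster on chromosome 19 was compared with the genes interleaved with it and within 500 kb of it. In that span 6 of 13 Siglec genes tested were higher at an adjusted p under 0.05 and none lower, with a median log2 difference of 0.41. Of the 68 other genes tested there, 12 were higher and 5 lower, with a median of 0.05, and 1 was called, EMC10, at −2.10. Chromosome 19 as a whole had 213 of 1204 genes higher and 82 lower, with a median of 0.11. Between CD33 and SIGLEC10, the cytotoxic granule gene NKG7 rose by 0.39 (limma, adjusted p = 0.0254). Around CD22, 11 of 36 other genes were higher and none lower, with a median of 0.23, and 3 noncoding genes were called, LINC01801 at 1.85, AC008555.2 at 1.07 and AC008555.5 at 1.64. Of the 11, at least LINC01801, AC008555.2 and the intronic U62631.1 passed the filter only through TF1-BAR, so they had to be higher to be tested. U62631.1 was at 0.127 and 0.297 FPKM in TF1-BA. EMC10 passed the filter only through TF1-BA. Around SIGLEC15, 1 of 7 other genes was lower and none higher.

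The adaptor and enzymes through which these receptors signal moved in both directions. Over the lists of partners and other Siglec genes, cell type markers left out, 28 of 66 genes tested passed in either direction, which is 42.4%, beside 26.9% of all genes tested. The count was 3 without TF1-BA replicate 1, 2 without TF1-BA replicate 2 and 13 without TF1-BAR replicate 2. TYROBP, whose product DAP12 is needed by SIGLEC14, SIGLEC15 and SIGLEC16, was at 72.4 and 82.0 FPKM in TF1-BA and 38.8 and 39.5 in TF1-BAR. It fell by 0.97 on the log2 scale with an SE of 0.08 (limma, adjusted p = 0.00514), in the opposite direction to SIGLEC14. Of the 8 genes of DAP12 and DAP10 signalling that were tested, 3 rose and 2 fell, with a median of 0.30. The kinase ZAP70 was at 1.43 and 1.34 FPKM in TF1-BA and 7.34 and 7.91 in TF1-BAR, a log2 difference of 2.11 (limma, adjusted p = 0.00182). The phospholipase PLCG1 and the exchange factor VAV1 rose by 0.70 and 0.68, and the adaptor LAT2 fell by 0.54.

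Among 12 tested genes of ITIM signalling, 4 rose and 2 fell, with a median of 0.18. The protein phosphatases SHP-1 and SHP-2 did not pass the test. PTPN6, which encodes SHP-1, was at 16.1 ± 0.297 FPKM in TF1-BA and 18.2 ± 0.20 in TF1-BAR (SD, n = 2 per line), with a log2 difference of 0.17 (limma, adjusted p = 0.120), and PTPN11, which encodes SHP-2, differed by 0.03 (adjusted p = 0.747). INPP5D, the lipid phosphatase SHIP-1, rose by 0.33 (adjusted p = 0.0230). SOCS3, a feedback inhibitor of cytokine signalling reported to bind phosphorylated CD33, was at 16.4 and 13.1 FPKM in TF1-BA and 25.3 and 27.8 in TF1-BAR and rose by 0.83 (adjusted p = 0.0129). Of the Src family kinases, SRC rose by 0.89, whereas YES1 fell from 78.0 and 64.4 to 34.0 and 25.9 FPKM, a difference of −1.24 (limma, adjusted p = 0.0103). SH2D1B, the adaptor EAT-2, was at 2.56 and 2.68 FPKM in TF1-BA and 0.272 and 0.445 in TF1-BAR, a difference of −1.87 (limma, adjusted p = 0.00565). It passed the filter only through TF1-BA, where it is high. SRC, PLCG1 and SIRPA lie on chromosome 20, where the median of 440 genes tested was 0.39 and 206 were higher.

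**Figure D4:**
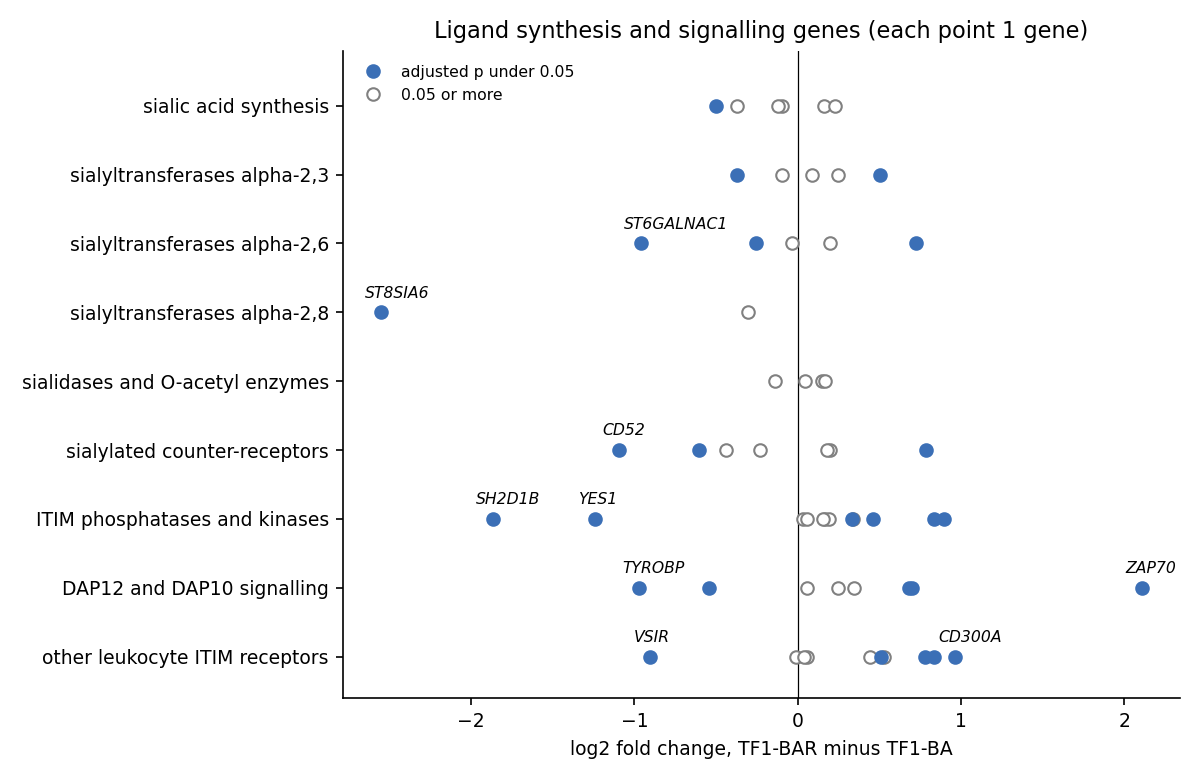
Log2 fold change, TF1-BAR minus TF1-BA, of each tested gene in the lists of sialic acid enzymes, counter-receptors and signalling partners; each point is 1 gene, filled where the adjusted p was under 0.05, and genes at 0.9 or more in size are named. ST8SIA6 at −2.55 and ZAP70 at 2.11 are the extremes, and every list of receptors or signalling genes has filled points on both sides of 0.

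Among the enzymes that make the ligands of Siglecs, ST8SIA6 had the largest difference of those tested. ST8SIA6 adds alpha-2,8-linked sialic acid, a linkage bound by several Siglecs, and was at 129 and 127 FPKM in TF1-BA and 22.9 and 20.1 in TF1-BAR. No library of one line came near those of the other, and the log2 difference was −2.55 with an SE of 0.08 (limma, adjusted p = 0.00108). ST8SIA6 lies on chromosome 10, where 264 of 593 genes tested were lower, 26 were higher, and the median was −0.35. The only other alpha-2,8 enzyme tested, ST8SIA4, differed by −0.30 (adjusted p = 0.165).

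Of the 5 alpha-2,6 sialyltransferases tested, ST6GALNAC6 rose by 0.72, while ST6GALNAC1, which makes the sialyl-Tn antigen, fell by 0.96 and ST6GAL1, the enzyme that makes the preferred ligand of CD22, fell by 0.25 (limma, adjusted p = 0.00828, 0.00421 and 0.0492). Of 5 alpha-2,3 enzymes, ST3GAL3 rose by 0.51 and ST3GAL2 fell by 0.37. ST3GAL4, the most abundant of these, was at 42.5, 39.1, 35.6 and 40.9 FPKM and did not pass. Of 6 genes of sialic acid synthesis, CMAS, which activates sialic acid for transfer, fell by 0.50 (adjusted p = 0.0212), from 48.9 and 45.0 to 35.3 and 30.9 FPKM, and none rose. NANS and GNE, which act earlier, differed by −0.12 and −0.10 and did not pass. None of 4 sialidase and O-acetyl enzyme genes passed, and the most abundant of them, NEU3 and NEU1, differed by −0.14 and 0.05.

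Among 7 tested sialylated counter-receptors, 1 rose and 2 fell, with a median of −0.23. CD24, the counter-receptor of SIGLEC10, was at 534 and 452 FPKM in TF1-BA and 896 and 803 in TF1-BAR and rose by 0.79 with an SE of 0.10 (limma, adjusted p = 0.0107). CD24 and SIGLEC10 were thus both higher in the resistant line. CD52, another sialylated protein bound by SIGLEC10, was at 4.33 and 4.43 FPKM in TF1-BA and 1.83 and 1.73 in TF1-BAR, a difference of −1.10 (limma, adjusted p = 0.00547). LGALS3BP fell by 0.61 (adjusted p = 0.0128). RNA levels of enzymes and carriers do not measure the sialic acid on the surface.

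Other inhibitory receptors of leukocytes gave a median of 0.48 over 10 tested genes, beside the 0.51 of the Siglec members. PILRA and CEACAM1, at log2 differences of 0.53 and 0.44, passed the filter only through TF1-BAR, their TF1-BA means being 0.437 and 0.365 FPKM. They had to be higher there to be tested and count in the median of 0.48, and neither passed the adjusted p. SIGLEC15, tested in the same way, counts in the 0.51. LAIR1, CD300A, FCGR2B and SIRPA rose by 0.78, 0.96, 0.84 and 0.51 (limma, adjusted p = 0.00828, 0.00623, 0.0198 and 0.0188). VSIR, on chromosome 10, fell by 0.90, from 49.8 and 53.1 to 24.8 and 29.9 FPKM (adjusted p = 0.00884). No test was made of whether the Siglecs differed from these receptors.

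Markers of the cell types known for each Siglec were read in the same libraries. TF1 is an erythroid-myeloid line, and GATA1, KLF1 and TFRC were at 45.4 to 97.2 FPKM in every library, with 2 of 9 erythroid markers higher in TF1-BAR, among them AHSP by 1.25, and a summed level of 295 and 302 FPKM in TF1-BA against 275 and 282 in TF1-BAR. The summed eosinophil, basophil and mast cell markers were 63.2 and 59.4 FPKM in TF1-BA and 126 and 129 in TF1-BAR. Of these, 7 were tested: FCER1A, HDC and MS4A2 rose by 1.18, 1.21 and 1.08, CPA3 rose by 1.66 but passed the filter only through TF1-BAR, PRG2 and PRG3 fell by 0.58 and 1.49, TPSAB1 did not pass, and the eosinophil genes CLC, EPX and CCR3 were at 0.305 FPKM or less. Their part in the higher SIGLEC8 and SIGLEC6 was not tested.

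The summed B cell markers were 5.78 and 6.49 FPKM in TF1-BA and 12.4 and 11.8 in TF1-BAR, where CD79A and CD79B rose by 0.61 and 1.35 and PAX5 was at 0.139 FPKM or less. The myeloid markers summed to 45.1 and 44.8 FPKM in TF1-BA and 66.8 and 77.9 in TF1-BAR. Of the 3 tested, ITGAM rose by 0.85 and LYZ did not pass, while CSF1R, which rose by 1.25, passed the filter only through TF1-BAR (means of 0.271 and 1.33 FPKM), and CD14 and CD163 were at 0.0673 FPKM or less. Of the T and natural killer markers, NKG7 rose, CD3D and GNLY fell by 1.64 and 0.70, GNLY having passed the filter only through TF1-BA, and CD3E and CD3G were at 0.0506 FPKM or less. The osteoclast gene ACP5 rose by 0.59, CTSK did not pass and DCSTAMP was listed at 0. None of 5 trophoblast markers passed the filter, the highest being GCM1 and ERVW-1 at 0.482 FPKM or less. In bulk RNA, more cells with a transcript and more transcript per cell cannot be told apart, and the part of any such subset in the Siglec levels was not tested.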

How the data were processed

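The authors deposited 1 table of FPKM values for 2 TF1-BA and 2 TF1-BAR libraries. Total RNA had been prepared with an unstranded NEBNext Ultra kit and sequenced as paired ends. The submitters' processing notes name TopHat2 2.0.13, Cufflinks 2.2.0, Cuffdiff 2.2.0 and GRCh38, and the annotation release is not given in the sources used here. Every sample column was used. The Siglec members, the gene lists and the rules for naming genes were chosen with earlier results of these data known.

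From the table, log2(FPKM + 0.5) was fitted for genes with a mean of at least 0.5 FPKM by limma 3.58.1 in R 4.3.3 (moderated test with an intensity trend, two-sided, Benjamini-Hochberg over all genes tested). With 2 libraries against 2 an exact permutation test cannot go below p = 0.333, so none is given. Since FPKM scales whole fragments by length and depth, fragments were recovered with a tolerance of 0.002, with library sizes inferred from the same values. Of 30853 genes above 0, 14306 were whole at their GENCODE 44 exon length, 16546 at a fitted length, and 1 was not recovered. A fitted length was the smallest that gave whole fragments, so the fragments at it are the least that fit. CD22, SIGLEC5, SIGLEC6, SIGLEC9, SIGLEC10, SIGLEC14 and SIGLEC15 rest on fitted lengths. In each library 98.7% of fragments lay in listed genes. Recovered fragments gave the depth behind each value and a limma voom fit, an alternative chosen after the data were seen. The script was tested on simulated data. Replicate log2 profiles correlated at 0.983 in TF1-BA and 0.979 in TF1-BAR, against 0.946 to 0.956 between lines, across genes. No library of a pair was a copy of the other, since their counts differed by 4.07 and 7.00 times the chi-square expected from sampling per degree of freedom.

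Named genes were all 10 members, every other Siglec gene with a fragment, and in each other list the genes past an adjusted p of 0.05 with, where fewer than 3 passed, the pair of highest level. Also named were the called neighbours of the cluster and the 5 genes nearest to CD33 in profile. A few genes of the lists are not reported here. Shared sequence was counted as identical 100-base windows of GENCODE 44 transcripts, and promoters were taken from RefSeq (GRCh38.p14), which matched all 10 members. Other pseudocounts, filters, scalings and replicate designs were tried as alternatives.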

Additional observations from a re-analysis of the deposited data

How the results depend on the processing

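No alternative turned the direction of any of the 9 tested members. CD33 was higher in all 16, at log2 differences of 0.78 to 0.94, and passed in 14. Leaving out 1 library at a time gave CD33 differences of 0.82 to 0.93, with adjusted p-values of 0.0283 to 0.0600, and it missed the threshold without TF1-BA replicate 1 or 2. These omissions took the members past an adjusted p of 0.05 from 5 to between 0 and 3, those called from 0 to between 0 and 1, the genes passing in the lists around the Siglecs from 28 to between 2 and 26, and all called genes from 737 to between 42 and 783. An arm left with 1 library was assumed to vary like the other. Without a filter on low values, 2 members and 16 genes of the lists passed. With FPKM rescaled to TPM, 1 member was called. By limma voom on recovered fragments, 2 members and 1139 genes were called. A pseudocount of 1 FPKM left 487 genes called, and dropping the fold change threshold gave 4167. SIGLEC8 missed in 9 of 16 alternatives, CD22 in 5, SIGLEC6 in 4 and SIGLEC10 in 2. SIGLEC12, which did not pass in any, changed sign to 0.048 with TPM, 0.11 without TF1-BA replicate 1 and 0.02 without TF1-BAR replicate 1, within −0.15 to 0.11 over the libraries left out. The causes were not tested.

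The replicate numbers did not pair the libraries, whose deviations from the group means correlated at 0.0646. A fit with that number as a block called 755 genes, and in it 4 members passed, CD33 differed by 0.87 (adjusted p = 0.0139) and only SIGLEC8 of the 5 was lost (adjusted p = 0.0713). SIGLEC5, SIGLEC7, SIGLEC9 and SIGLEC15 rest on 9 to 64 fragments per library, and the part of this depth in their results was not tested.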
